A study of Mus musculus with 16 samples.

Results

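The integrated stress response genes described here are Atf4, Atf3, Ddit3, Trib3, Chac1, Sesn2, Asns, Psat1, Phgdh and Hspa5, followed in a pancreatic cancer cell line with and without a guide against Sin3B. They were taken by name, as genes whose symbol in both deposited count tables equals 1 of these 10 names. This rule uses no measured values, but the list was drawn up with earlier results of these data known. There were 55738 features in the count table of the untreated libraries and 56980 in that of the IFNγ experiment. The symbol Ddit3 stands on 2 records in each table, so the 10 genes have 11 records. The additional Ddit3 record, a short upstream reading frame, held 0 to 4 counts in a library and was left out of the tests. KPC1199 cells are a mouse pancreatic ductal adenocarcinoma (PDAC) line, and both genotypes were made in it and share its background. The sgCtrL cells, labelled WT, carry a control guide, and the Sin3Bsg1 cells, labelled Sin3B knockout, carry 1 guide against Sin3B. Guides were delivered with Cas9 by lentivirus (lentiCRISPR v2), and neither line is stated to be a single clone. The untreated experiment has 2 libraries per genotype, and the IFNγ experiment has 3 libraries per genotype kept without IFNγ and 3 given 10 ng/ml IFNγ for 24 h. Nothing in the labels says that replicates came from separate cultures, so each p measures the spread between libraries, which may be technical.

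In the integrated stress response, kinases that sense amino acid shortage, unfolded protein, viral RNA or heme shortage phosphorylate the translation factor eIF2α. General translation then falls while translation of the Atf4 mRNA rises, and the ATF4 protein, paired with other bZIP factors, switches on genes for amino acid synthesis, amino acid transport, tRNA charging and feedback. In pancreatic tumors, which are often poorly supplied with blood, the pathway is known for helping cells cope with scarce amino acids. The libraries measured mRNA, and eIF2α phosphorylation and ATF4 protein were not measured.

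ATF4 dimers with C/EBP proteins are known to bind a composite element called CARE, and promoters of endoplasmic reticulum chaperones are known for the ERSE element. The core letters TGATGNAA were searched on both strands from 250 bases before to 50 bases after each RefSeq gene start, and occurred in 3.97% of 32851 promoter windows. 4 of the 10 genes had a match: Asns, Atf3, Chac1 and Trib3. The letters of ERSE, CCAAT and CCACG with 9 bases between them on either strand, occurred in 0.119% of windows and in 1 of the 10 genes, Hspa5. The matches did not overlap each other. The windows are shown because these genes recur in the results, 5′ to 3′ on the strand of the gene, with the match in capitals. Sequences are from RefSeq (GRCm38.p6 table), each was found once in GRCm39, and the coordinates are those of GRCm39.
Asns, first matched base at -23 from the start, chr6:7693217-7693240, minus strand: cagccacaTGATGAAActtcccgc
Trib3, at 15 after the start, chr2:152185951-152185974, minus strand, motif on the opposite strand: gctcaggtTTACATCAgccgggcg
Chac1, at -193, chr2:119181510-119181557, plus strand, motif on the opposite strand: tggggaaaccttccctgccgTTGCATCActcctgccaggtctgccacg
Atf3, at -110, chr1:190915613-190915660, minus strand, motif on the opposite strand: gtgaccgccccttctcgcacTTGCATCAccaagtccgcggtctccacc
Hspa5, at -65, chr2:34662017-34662075, plus strand: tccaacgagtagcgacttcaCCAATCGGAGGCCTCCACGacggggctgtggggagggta
A match is a description of letters, and binding was not measured here.

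Estimated counts summed to between 29683181 and 32311721 per library in the untreated experiment and to between 18128055 and 27056903 in the IFNγ experiment. The guide against Sin3B, tggctcccgctggggtcgttCGG (the next 3 bases of the genome in capitals), matches chr8:73449982-73450001 of GRCm39 on the plus strand, in coding exon 1 of Sin3b. Sin3b mRNA, the target, was lower in Sin3Bsg1 in all 3 comparisons of genotype, with log2 fold changes of -1.28, -1.24 and -1.22 in the untreated experiment, without IFNγ and with IFNγ (edgeR adjusted p = 1.19e-11, 5.11e-10 and 5.22e-10). All 6 markers of pancreatic tumor epithelium were detected, and the 5 leukocyte and 3 endothelial markers stayed under 1 CPM (counts scaled to the library total with edgeR's TMM factors) in every library. Of 5 fibroblast markers, Dcn, Lum, Thy1 and Fap stayed under 1 CPM. The summed TPM (which also corrects for gene length) of the fibroblast markers, nearly all from Pdgfra, ran from 26.3 to 26.5 in sgCtrL and from 7.86 to 8.36 in Sin3Bsg1 of the untreated experiment. In the IFNγ experiment they ran from 73.1 to 76.8 TPM in sgCtrL and 60.9 to 65.1 TPM in Sin3Bsg1 without IFNγ, and from 49.5 to 50.7 TPM and 40.8 to 45.2 TPM with it. The sums of the epithelial markers ran from 5433 to 5451 TPM in sgCtrL and from 7188 to 7293 TPM in Sin3Bsg1 of the untreated experiment, from 3789 to 3868 TPM and 4096 to 4193 TPM without IFNγ, and from 3837 to 4556 TPM and 5090 to 5274 TPM with it. Marker levels thus moved with genotype beside each difference given below, and their part in it was not tested. In bulk libraries, fewer cells of a kind and less RNA per cell cannot be told apart. In the IFNγ experiment, replicate 1 of sgCtrL with IFNγ stood apart: its counts differed from replicates 2 and 3 with mean chi-square values, taken per gene, of 23.2 and 19.5, whereas replicates 2 and 3 gave 4.12. This library had the highest CPM of its group for 7 of the 10 genes, so results of the IFNγ experiment are given with and without it.

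Most integrated stress response genes were raised in untreated Sin3Bsg1 cells. 9 of the 10 genes were higher at an adjusted p under 0.05 and none was lower, where 15.1% of the 14589 genes tested were higher and 16.0% were lower. The median log2 fold change of the 10 genes was 0.56, and that of all genes tested was 0.0024. For all 10 genes both Sin3Bsg1 libraries lay above both sgCtrL libraries, as did 31.9% of the genes tested. Chac1, Trib3 and Asns, which act downstream of ATF4, had the 3 largest rises.

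Atf4 (ENSMUSG00000042406, chr15:80139372-80141745, plus strand, from GENCODE vM39 on GRCm39 like the positions that follow) encodes the bZIP factor at the center of the pathway. Atf4 stood at 280 and 282 CPM in the sgCtrL libraries and at 379 and 387 CPM in the Sin3Bsg1 libraries. This is a log2 fold change of 0.45 (SE 0.023, edgeR adjusted p = 3.23e-10), with a spread within each genotype far smaller than the gap between them. Atf3 (ENSMUSG00000026628, chr1:190902493-190950241, minus strand) encodes a stress-induced bZIP factor of the same family. It was measured at 2.99 and 2.62 CPM in sgCtrL and at 4.70 and 4.24 CPM in Sin3Bsg1, and its log2 fold change of 0.67 had an SE of 0.19 (edgeR adjusted p = 0.0124). Atf3 had the lowest CPM of the 10 genes, and DESeq2 gave an adjusted p of 0.0703. The edgeR call was also lost without sgCtrL replicate 2 (log2 fold change 0.58, adjusted p = 0.0572) or Sin3Bsg1 replicate 1 (0.60, adjusted p = 0.0724). Ddit3 (ENSMUSG00000025408, chr10:127124268-127132163, plus strand) encodes CHOP, a C/EBP-family partner of ATF4 that is known for promoting cell death under lasting stress. Ddit3 values were 7.66 and 7.89 CPM in sgCtrL against 13.7 and 12.2 CPM in Sin3Bsg1, a log2 fold change of 0.73 (SE 0.11, edgeR adjusted p = 6.73e-05). Ddit3 shares 3820 bases with Mars1 on the opposite strand. The strand setting of the counting is not given in the sources used here, and without it reads of the overlapping part cannot be told apart. Mars1, a methionyl-tRNA synthetase gene, rose by 0.38 on the log2 scale in the same comparison (edgeR adjusted p = 1.89e-07).

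Trib3 (ENSMUSG00000032715, chr2:152179337-152191958, minus strand) encodes a pseudokinase that feeds back on ATF4 and binds AKT. It stood at 18.8 and 19.1 CPM in sgCtrL and at 39.8 and 39.6 CPM in Sin3Bsg1, a 2.10-fold rise (log2 1.07, SE 0.065, edgeR adjusted p = 2.66e-09). Chac1 (ENSMUSG00000027313, chr2:119180757-119184866, plus strand) encodes an enzyme that degrades glutathione. Its CPM were 4.10 and 5.10 in sgCtrL and 10.8 and 12.1 in Sin3Bsg1, a 2.49-fold rise (log2 1.32, SE 0.14, edgeR adjusted p = 1.46e-06). Chac1 thus had the largest fold of the 10 genes on the second lowest level in CPM. Sesn2 (ENSMUSG00000028893, chr4:132219335-132237815, minus strand) encodes sestrin 2, a leucine sensor that restrains mTORC1. The Sesn2 libraries read 14.7 and 13.3 CPM in sgCtrL and 17.0 and 17.5 CPM in Sin3Bsg1, and the log2 fold change of 0.30 (SE 0.089) passed in edgeR (adjusted p = 0.0179) and not in DESeq2 (adjusted p = 0.111). It did not pass in edgeR without sgCtrL replicate 2 (0.23, adjusted p = 0.178) or Sin3Bsg1 replicate 2 (0.28, adjusted p = 0.0504).

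The amino acid enzymes differed in how far they moved. Asns (ENSMUSG00000029752, chr6:7671667-7728461, minus strand) encodes asparagine synthetase. Asns was at 72.3 and 71.6 CPM in sgCtrL and at 142 and 141 CPM in Sin3Bsg1, a 1.96-fold rise (log2 0.97, SE 0.034, edgeR adjusted p = 3.51e-12), which gave it the smallest p of the 10. Psat1 (ENSMUSG00000024640, chr19:15882039-15924701, minus strand) encodes phosphoserine aminotransferase, a step of serine synthesis. Psat1 moved from 307 and 301 CPM to 383 and 381 CPM, a log2 fold change of 0.33 (SE 0.022, edgeR adjusted p = 9.49e-09). Phgdh (ENSMUSG00000053398, chr3:98220484-98255047, minus strand) encodes the dehydrogenase that opens serine synthesis. Phgdh read 633 and 645 CPM in sgCtrL and 656 and 658 CPM in Sin3Bsg1, and its log2 fold change of 0.040 (95% interval -0.00029 to 0.080) was the only one of the 10 that did not pass (edgeR adjusted p = 0.129). Hspa5 (ENSMUSG00000026864, chr2:34661982-34668880, plus strand) encodes BiP, the main chaperone of the endoplasmic reticulum and a target of the ATF6 arm of the unfolded protein response. Hspa5 stood at 1190 and 1201 CPM in sgCtrL and at 1375 and 1375 CPM in Sin3Bsg1, a log2 fold change of 0.20 (SE 0.016, edgeR adjusted p = 5.78e-08), small in size and large against its spread. Hspa5 overlaps Rabepk on the opposite strand along 5980 bases. Asns and Trib3 overlap noncoding RNA genes on the opposite strand, 1700012J15Rik along 35486 bases and Gm14164 along 4441 bases. Sesn2 overlaps the noncoding RNA gene Gm12981 on the same strand along 6089 bases. Psat1 and Atf3 have short overlaps on the opposite strand, of 556 and 108 bases. The limit given for reads of the overlapping part of Ddit3 holds for these genes too.

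**Figure D1:**
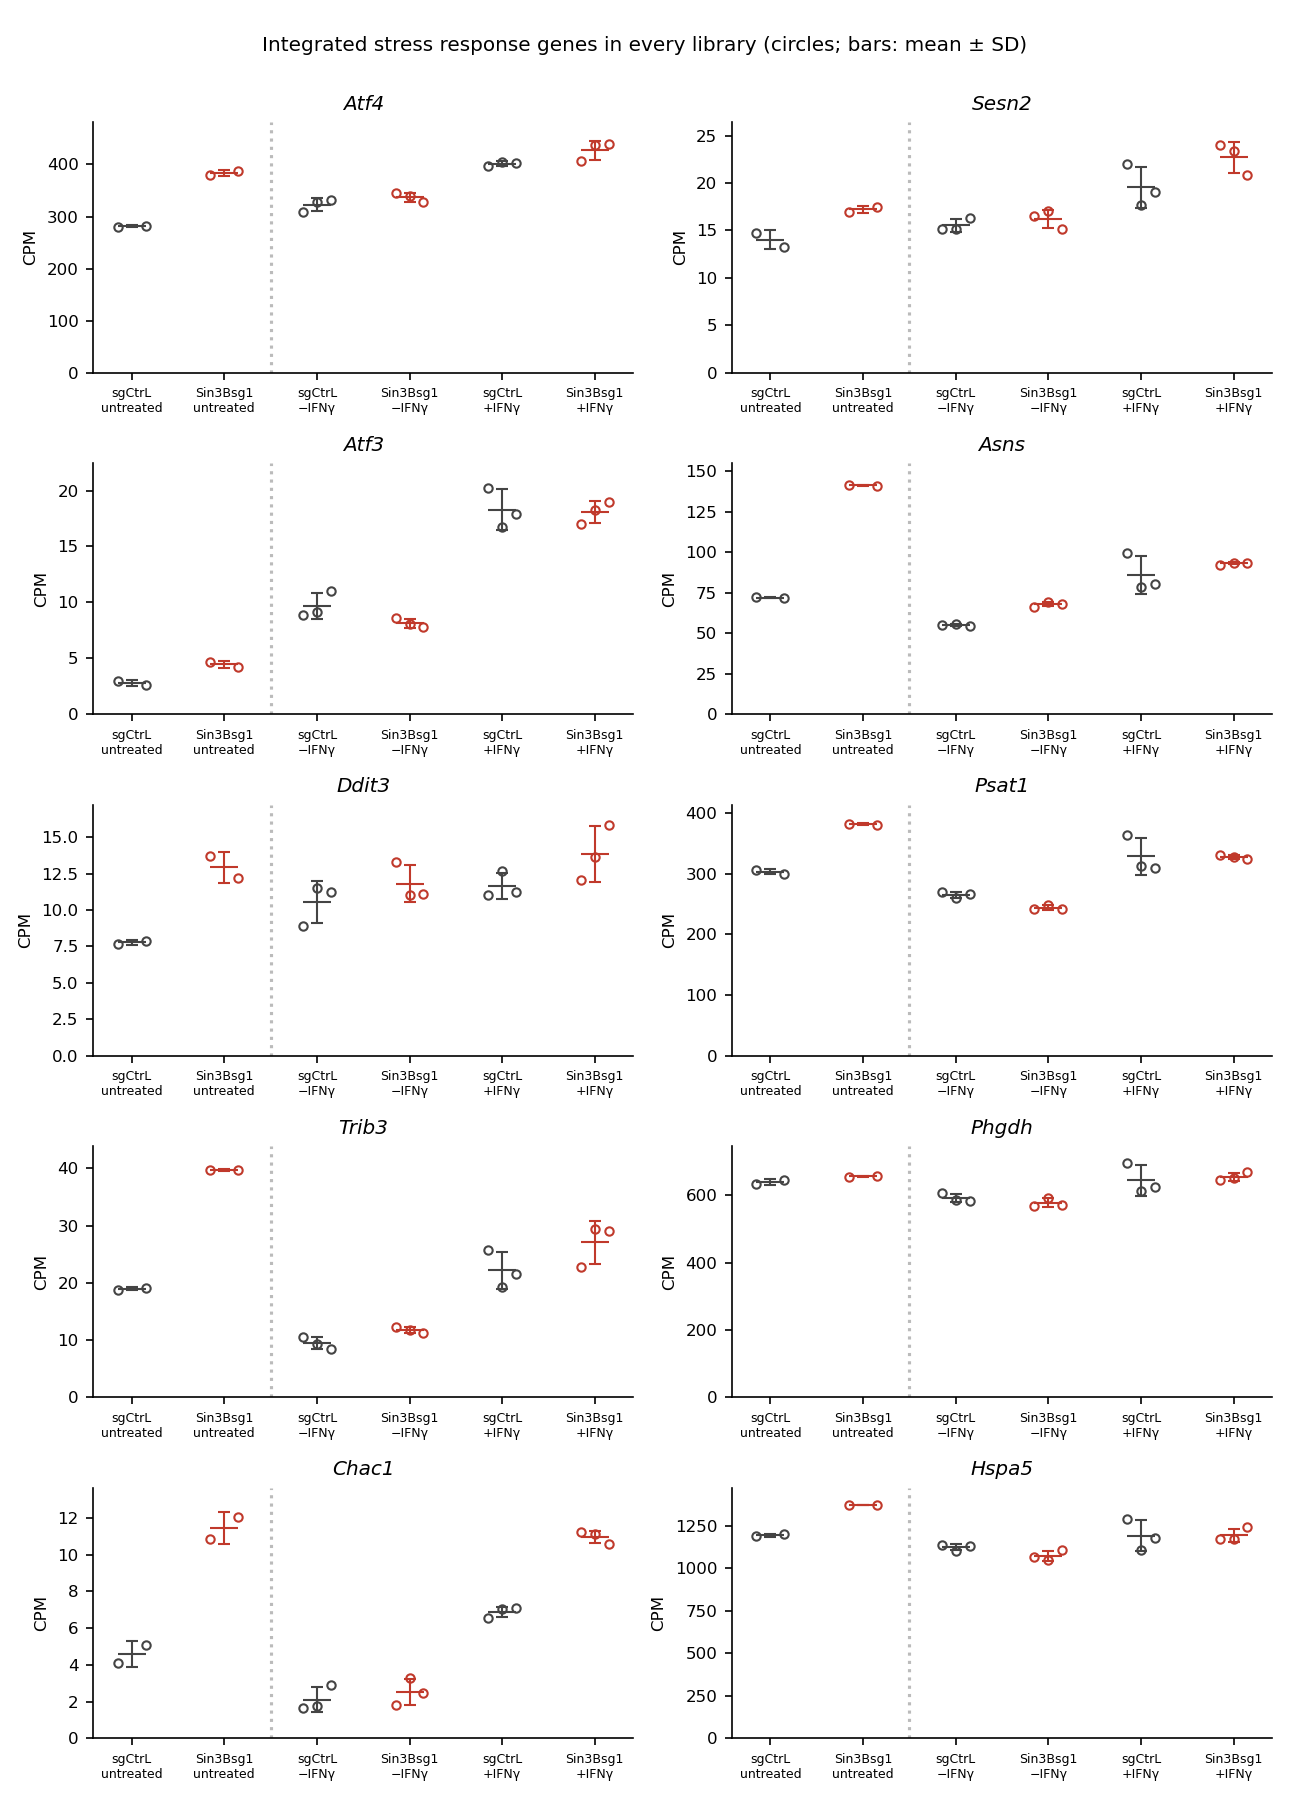
CPM of the 10 genes in each of the 16 libraries (circles), with the mean and SD of each group (horizontal and vertical bars), for sgCtrL (gray) and Sin3Bsg1 (red). The dotted line parts the untreated experiment (left) from the IFNγ experiment (right), which are separate tables. Asns for example lay at 71.6 to 72.3 CPM in sgCtrL and at 141 to 142 CPM in Sin3Bsg1 of the untreated experiment, and at 54.2 to 55.5 and 66.5 to 69.3 CPM in the same genotypes without IFNγ.

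The same genotypes were compared without IFNγ in the IFNγ experiment, where 1 of the 10 genes was higher in Sin3Bsg1 and none lower. Of the 14913 genes tested there, 7.89% were higher and 9.33% lower. Asns was the gene that passed. It was measured at 55.2, 55.5 and 54.2 CPM in sgCtrL and at 66.5, 69.3 and 68.2 CPM in Sin3Bsg1, without overlap (as in 18.3% of the genes tested), a log2 fold change of 0.31 (SE 0.071, edgeR adjusted p = 0.00695). Trib3 had a log2 fold change of similar size, 0.32 (SE 0.13, edgeR adjusted p = 0.115), with 10.5, 9.30 and 8.44 CPM in sgCtrL and 12.2, 11.8 and 11.1 CPM in Sin3Bsg1, also without overlap. The Trib3 call turned with the choice of libraries: fitted on only the 6 libraries compared, its adjusted p was 0.0233, and without replicate 1 of sgCtrL with IFNγ it was 0.0415. Chac1, at 1.67, 1.75 and 2.89 CPM in sgCtrL and 1.83, 3.26 and 2.45 CPM in Sin3Bsg1, overlapped between genotypes (log2 fold change 0.26, 95% interval -0.22 to 0.74). That interval does not reach the log2 fold change of 1.32 of the untreated experiment, but the experiments were fitted apart and their difference was not tested.

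Some of the 10 genes leaned the other way without IFNγ. Atf3 stood at 8.89, 9.09 and 11.0 CPM in sgCtrL and at 8.56, 8.04 and 7.78 CPM in Sin3Bsg1 (log2 fold change -0.25, SE 0.11, edgeR adjusted p = 0.135). Psat1 stood at 270.0, 260.2 and 267 CPM in sgCtrL and at 242, 249 and 242 CPM in Sin3Bsg1 (log2 fold change -0.12, SE 0.054, edgeR adjusted p = 0.150). In both genes all Sin3Bsg1 libraries lay below all sgCtrL libraries, as in 20.9% of the genes tested, while neither passed the test. Without replicate 1 of sgCtrL with IFNγ the SE of Psat1 was 0.033 and it passed as lower (log2 fold change -0.11, edgeR adjusted p = 0.0200), and 2 of the 10 genes were then higher and 1 lower, where 11.4% of the 15348 genes tested in that fit were higher and 11.6% lower. Psat1 also passed as lower when only the 6 libraries compared were fitted (-0.11, edgeR adjusted p = 0.00952). Atf4 (0.062), Ddit3 (0.16), Sesn2 (0.065), Phgdh (-0.034) and Hspa5 (-0.065) had overlapping libraries and edgeR adjusted p values from 0.413 to 0.698. For Atf4 the 95% interval of the log2 fold change, -0.036 to 0.16, lay below the value of 0.45 found in the untreated experiment.

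**Figure D2:**
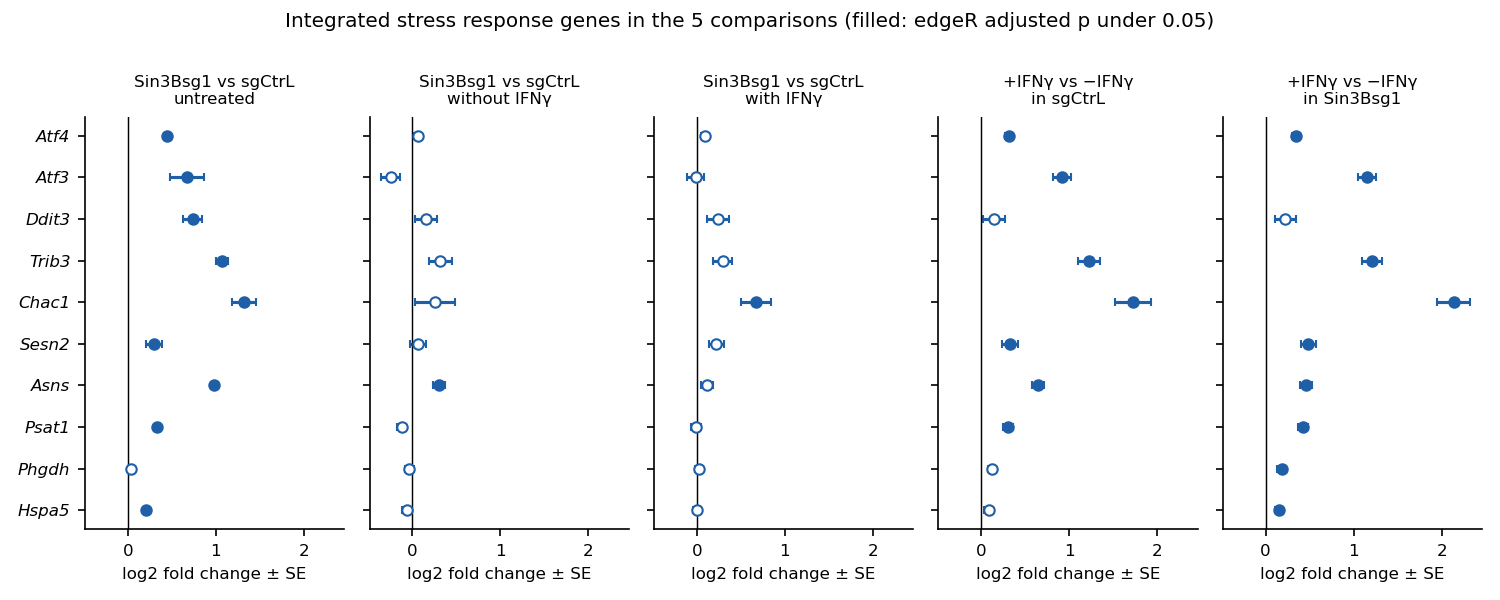
Log2 fold changes (x axis) with SE for the 10 genes in the 5 comparisons. Filled points passed an edgeR adjusted p under 0.05, and 9, 1, 1, 7 and 9 of the 10 were filled from left to right. The middle panels share no library with the first, and the IFNγ panels use the libraries of the middle panels as their controls or treated groups.

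With IFNγ, 1 of the 10 genes was higher in Sin3Bsg1 than in sgCtrL and none was lower, against 8.62% and 7.90% of the 14913 genes tested. This gene was Chac1, at 6.56, 7.02 and 7.07 CPM in sgCtrL and 11.2, 11.1 and 10.6 CPM in Sin3Bsg1. Its groups did not overlap, as in 15.5% of the genes tested, and the log2 fold change was 0.67 (SE 0.17, edgeR adjusted p = 0.0122). Atf4 also did not overlap, at 396, 405 and 402 CPM against 406, 436 and 440 CPM, but its log2 fold change of 0.091 did not pass (edgeR adjusted p = 0.203). Trib3 (0.29), Ddit3 (0.24) and Sesn2 (0.22) had positive log2 fold changes with edgeR adjusted p values of 0.0857, 0.200 and 0.0926. Asns, the gene that passed without IFNγ, had a log2 fold change of 0.12 with IFNγ (95% interval -0.031 to 0.26, edgeR adjusted p = 0.294). Psat1 (-0.0056), Atf3 (-0.013), Phgdh (0.023) and Hspa5 (0.0027) were close to 0 on the log2 scale, and the sign of Hspa5 turned with DESeq2 (-0.0025).

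Several calls in this comparison changed with the control library that stood apart. Asns was at 99.4 CPM in replicate 1 of sgCtrL with IFNγ and at 78.3 and 80.6 CPM in replicates 2 and 3, while the 3 Sin3Bsg1 libraries lay between at 92.5, 93.7 and 93.3 CPM. Trib3 was also highest in replicate 1 among the sgCtrL libraries, at 25.6 CPM against 19.3 and 21.5 CPM in replicates 2 and 3, while 1 of the Sin3Bsg1 libraries lay below replicate 1 and 2 lay above it, at 22.8, 29.3 and 29.1 CPM. Without that library 4 of the 10 genes were higher in Sin3Bsg1 with IFNγ: Chac1 (log2 fold change 0.65, edgeR adjusted p = 0.0153), Trib3 (0.42, adjusted p = 0.00674), Sesn2 (0.32, adjusted p = 0.00943) and Asns (0.24, adjusted p = 0.000505). Among all genes tested, 2464 were called with the library and 2945 without it, when 11.5% were higher and 7.69% lower. Sesn2, with 22.0 CPM in replicate 1 and 17.7 and 19.0 CPM in the other sgCtrL libraries, stood at 24.0, 23.4 and 20.9 CPM in Sin3Bsg1. Trib3 passed, too, when Sin3Bsg1 replicate 1 was left out instead (log2 fold change 0.40, edgeR adjusted p = 0.0207).

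**Figure D3:**
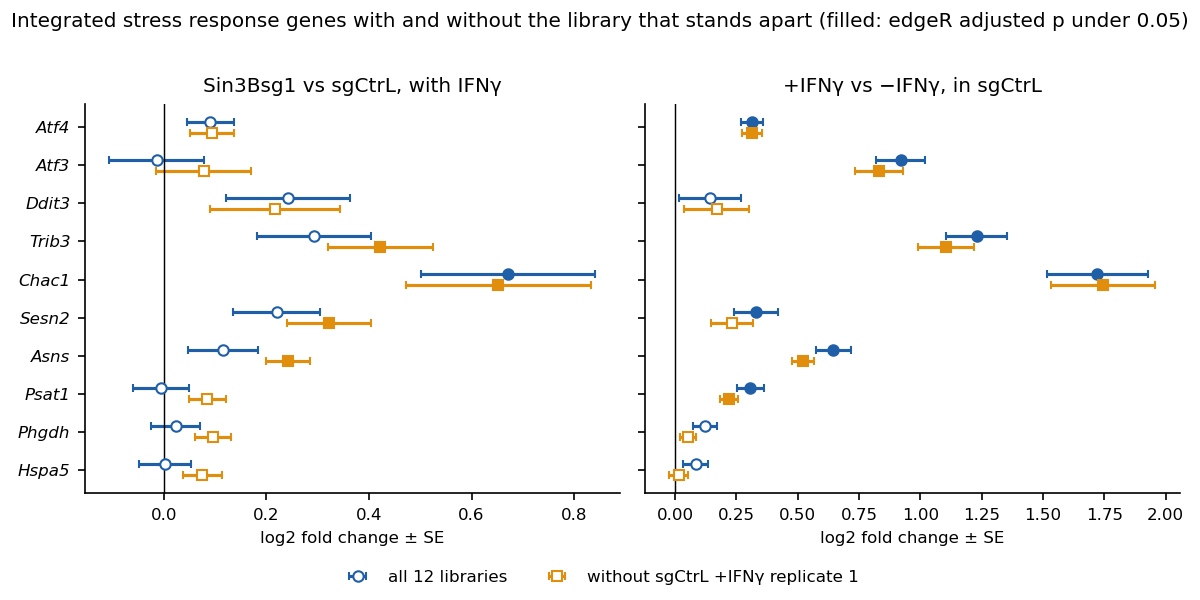
Log2 fold changes (x axis) with SE of the 10 genes for genotype with IFNγ (left) and for IFNγ in sgCtrL (right), fitted on all 12 libraries (blue circles) and without replicate 1 of sgCtrL with IFNγ (orange squares). Filled symbols passed an edgeR adjusted p under 0.05. On the left 1 gene is filled with all libraries and 4 without the library, and on the right 7 and 6 are filled.

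IFNγ raised most of the 10 genes in both genotypes, in comparisons that share their libraries with the comparisons of genotype above. In sgCtrL 7 of 10 were higher and none lower, where 15.7% of genes tested were higher and 14.5% lower. In Sin3Bsg1 9 of 10 were higher and none lower, where 16.1% were higher and 12.3% lower. The libraries with IFNγ lay above all those without it for 8 of 10 genes in sgCtrL (20.8% of genes tested) and for 9 of 10 in Sin3Bsg1 (24.3%). The median log2 fold change of the 10 genes was 0.32 in sgCtrL and 0.44 in Sin3Bsg1, and that of all genes tested was -0.00063 and 0.0052. Without replicate 1 of sgCtrL with IFNγ the counts were 6 and 9 of 10, where 14.9% and 18.4% of all genes tested were higher.

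Chac1 had the largest response to IFNγ. In sgCtrL it went from between 1.67 and 2.89 CPM to between 6.56 and 7.07 CPM, a 3.30-fold rise (log2 1.72, SE 0.20, edgeR adjusted p = 8.20e-06). In Sin3Bsg1 it went from between 1.83 and 3.26 CPM to between 10.6 and 11.2 CPM, a 4.39-fold rise (log2 2.13, SE 0.19, edgeR adjusted p = 2.76e-07). Trib3, the AKT-binding pseudokinase, rose by a nearly equal amount in both genotypes, 2.34-fold in sgCtrL (log2 1.23, SE 0.12, edgeR adjusted p = 1.39e-06) and 2.31-fold in Sin3Bsg1 (log2 1.21, SE 0.12, edgeR adjusted p = 8.02e-07). Atf3 went from 8.89, 9.09 and 11.0 CPM to 20.3, 16.7 and 17.9 CPM in sgCtrL, and from 8.56, 8.04 and 7.78 CPM to 17.0, 18.3 and 19.0 CPM in Sin3Bsg1. Its log2 fold changes were 0.92 (SE 0.0996, edgeR adjusted p = 3.01e-06) and 1.15 (SE 0.099, edgeR adjusted p = 2.02e-07). Atf4 itself moved less than these targets, with log2 fold changes of 0.31 and 0.34 (edgeR adjusted p = 7.24e-05 and 2.71e-05). It stood at 308, 328 and 332 CPM without and 396, 405 and 402 CPM with IFNγ in sgCtrL, so the groups were apart.

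The amino acid genes rose by smaller steps. Asns, asparagine synthetase, had log2 fold changes of 0.64 (SE 0.071, edgeR adjusted p = 3.57e-06) in sgCtrL and 0.45 (SE 0.069, edgeR adjusted p = 0.000108) in Sin3Bsg1, and without the library that stood apart the value in sgCtrL was 0.52. Psat1 rose by 0.31 and 0.42 on the log2 scale (edgeR adjusted p = 0.000464 and 1.94e-05). Phgdh, next to it in serine synthesis, had log2 fold changes of 0.12 and 0.18, which passed in Sin3Bsg1 (edgeR adjusted p = 0.0101) and not in sgCtrL (adjusted p = 0.0679). Phgdh passed in sgCtrL without replicate 2 with IFNγ (0.16, edgeR adjusted p = 0.0293). Without replicate 1 with IFNγ, the library that stood apart, it fell to 0.053 in sgCtrL (edgeR adjusted p = 0.280). Psat1 fell to 0.22 in sgCtrL without that library and still passed (edgeR adjusted p = 0.000132). In Sin3Bsg1 the Phgdh call was lost without replicate 3 with IFNγ (0.14, edgeR adjusted p = 0.0620). Sesn2, the leucine sensor, rose by 0.33 and 0.48 (edgeR adjusted p = 0.0109 and 0.000449), and the value in sgCtrL was 0.23 with an adjusted p of 0.0504 when replicate 1 was left out. Hspa5, the chaperone, had 0.084 in sgCtrL (edgeR adjusted p = 0.234) and 0.15 in Sin3Bsg1 (adjusted p = 0.0330), a call that DESeq2 did not make (adjusted p = 0.0514). The Hspa5 call in Sin3Bsg1 was also lost without any of the 3 Sin3Bsg1 libraries with IFNγ, or without replicate 1 or 2 of Sin3Bsg1 without IFNγ (log2 fold changes from 0.10 to 0.15, edgeR adjusted p from 0.0766 to 0.195). In sgCtrL the Hspa5 value was 0.014 without replicate 1 with IFNγ (edgeR adjusted p = 0.820). Ddit3 was the 1 gene of the 10 that passed in neither genotype, with log2 fold changes of 0.14 (95% interval -0.12 to 0.41) and 0.23 (95% interval -0.030 to 0.48). In sgCtrL it read 8.89, 11.5 and 11.2 CPM without and 11.0, 12.7 and 11.3 CPM with IFNγ, so the groups overlapped.

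The interaction of genotype and IFNγ asks whether the response to IFNγ differed between genotypes, and none of the 10 genes passed it. With edgeR 0 of the 10 had an unadjusted p under 0.05, beside 810 of the 14913 genes tested, and the lowest adjusted p was 0.913. DESeq2 also called 0 of the 10. Over all genes tested 0.114% passed. The differences of the log2 responses, Sin3Bsg1 minus sgCtrL, ran from -0.19 for Asns (95% interval -0.40 to 0.021) to 0.41 for Chac1 (95% interval -0.19 to 1.02). Without replicate 1 of sgCtrL with IFNγ the difference of Asns was -0.073, and that of Chac1 was 0.38. Chac1 was at 0.13 without replicate 3 of sgCtrL without IFNγ, at 0.22 without replicate 1 of Sin3Bsg1 without IFNγ and at 0.64 without replicate 2 of that group, and none of these values passed. For Atf4 the interval was -0.11 to 0.17, and for Trib3 it was -0.39 to 0.34. Without replicate 1 of sgCtrL with IFNγ, 5 of the 10 had an unadjusted p under 0.05, beside 1345 of the 15348 genes tested in that fit. Of the 10, 0 passed, the lowest adjusted p being 0.161 for Psat1 (edgeR, difference 0.20, SE 0.049).

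The rest of the pathway was read from 86 other genes in 9 lists, of which 85 were tested and Fgf21 was too low to test. In the untreated experiment 43 of the 85 were higher in Sin3Bsg1 and 10 lower, with a median log2 fold change of 0.12, where 15.1% of all genes tested were higher and 16.0% lower. Without IFNγ 10 were higher and 5 lower (7.89% and 9.33% of all genes), and with IFNγ 13 and 3 (8.62% and 7.90%). IFNγ raised 33 and lowered 13 in sgCtrL (15.7% and 14.5% of all genes), and raised 35 and lowered 9 in Sin3Bsg1 (16.1% and 12.3%). Without the library that stood apart, 19 were higher and 7 lower for genotype without IFNγ (11.4% and 11.6% of all genes), and 26 and 4 with IFNγ (11.5% and 7.69%). IFNγ then raised 34 and lowered 18 in sgCtrL (14.9% and 15.9% of all genes), and raised 40 and lowered 9 in Sin3Bsg1 (18.4% and 15.8%). None of the 85 passed the interaction in edgeR, where 7 had an unadjusted p under 0.05, beside 810 of the 14913 genes tested. DESeq2 called 1 of them, as did edgeR without the library that stood apart, in both cases Wars1.

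Upstream of ATF4, of the 5 genes of eIF2α kinases and their substrate, 0 were higher and 2 lower in the untreated experiment (15.1% and 16.0% of all genes). Eif2ak1 (HRI, the heme-regulated kinase) and Eif2ak4 (GCN2, which senses uncharged tRNA) were lower there, with log2 fold changes of -0.20 and -0.21 (edgeR adjusted p = 0.00114 and 0.00366). Eif2ak3 (PERK, the kinase of the endoplasmic reticulum) was higher in Sin3Bsg1 without IFNγ (log2 fold change 0.24, edgeR adjusted p = 0.0137) and with IFNγ (0.28, adjusted p = 0.00643). The Eif2ak3 call without IFNγ was lost without sgCtrL replicate 1 (0.23, edgeR adjusted p = 0.0540) or Sin3Bsg1 replicate 2 (0.19, adjusted p = 0.0805). Eif2ak2 (PKR, the kinase for double-stranded RNA and a known interferon-stimulated gene) rose with IFNγ from a mean of 56.8 to 140 CPM in sgCtrL and from 53.0 to 144 CPM in Sin3Bsg1. Those are log2 fold changes of 1.30 and 1.45 (edgeR adjusted p = 4.55e-10 and 9.98e-11), with SEs of 0.069 in both. In the list of eIF2α phosphatase and eIF2B genes, 2 of 7 were higher in the untreated experiment (15.1% of all genes). Ppp1r15b, a phosphatase subunit, was higher in Sin3Bsg1 without IFNγ (0.28, edgeR adjusted p = 0.000428).

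Among 6 partner transcription factors, 5 were higher and 1 lower in the untreated experiment (15.1% and 16.0% of all genes). Atf5, a bZIP factor induced in mitochondrial stress, was higher in Sin3Bsg1 in all 3 genotype comparisons, with log2 fold changes of 0.69, 0.44 and 0.41 (edgeR adjusted p = 7.30e-07, 0.000614 and 0.00109). Nupr1, a small stress-induced chromatin protein, had 0.64 in the untreated experiment (edgeR adjusted p = 1.41e-06). Cebpb, a C/EBP factor that pairs with ATF4, was lower in the untreated experiment (-0.54, edgeR adjusted p = 6.91e-08) and with IFNγ (-1.07, adjusted p = 0.00615). Without IFNγ it was not called, with means of 62.4 CPM in Sin3Bsg1 and 69.0 CPM in sgCtrL and overlapping libraries. With IFNγ the means were 64.0 CPM in Sin3Bsg1 and 134 CPM in sgCtrL, and the interaction did not pass. In sgCtrL with IFNγ Cebpb varied widely, at 193, 125 and 84.6 CPM, and without replicate 1 its log2 fold change of genotype was -0.71. Jdp2, a bZIP repressor, rose with IFNγ by 0.69 in sgCtrL and 0.60 in Sin3Bsg1 (edgeR adjusted p = 4.17e-06 and 1.31e-05).

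Of 10 further enzymes of serine, glycine, one-carbon and proline metabolism, 8 were higher in Sin3Bsg1 in the untreated experiment, 2 without IFNγ and 3 with IFNγ (15.1%, 7.89% and 8.62% of all genes), and none was lower in these comparisons. Pycr1, a proline-making enzyme, had a log2 fold change of 0.73 in the untreated experiment (edgeR adjusted p = 2.04e-05) and 0.60 without IFNγ (adjusted p = 0.0111), a call lost without sgCtrL replicate 1 (0.53, adjusted p = 0.0572) or Sin3Bsg1 replicate 3 (0.53, adjusted p = 0.0510). Mthfd2, a mitochondrial folate enzyme, had 0.53 in the untreated experiment (edgeR adjusted p = 9.79e-08), and rose with IFNγ by 0.53 in sgCtrL and 0.59 in Sin3Bsg1 (adjusted p = 5.48e-06 and 1.41e-06). Aldh1l2, which oxidizes formyl-folate in mitochondria, was higher in Sin3Bsg1 with IFNγ (0.46, edgeR adjusted p = 4.55e-05), and Psph, the last enzyme of serine synthesis, rose with IFNγ in Sin3Bsg1 (0.48, adjusted p = 3.78e-05).

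In the list of 9 amino acid transporters, 6 were higher in the untreated experiment (15.1% of all genes). Slc7a11, the cystine importer, was higher in Sin3Bsg1 there, with mean levels of 75.7 against 44.7 CPM (log2 fold change 0.76, edgeR adjusted p = 6.37e-09), but lower in the IFNγ experiment, with means of 72.6 against 100.0 CPM without IFNγ (-0.46, adjusted p = 1.30e-05) and 66.9 against 86.5 CPM with IFNγ (-0.37, adjusted p = 0.000120). The experiments thus gave opposite calls for this gene, and their difference was not tested. Slc6a9, a glycine transporter, had 0.73 in the untreated experiment (edgeR adjusted p = 1.07e-07). Slc7a1, a transporter of arginine and lysine, rose with IFNγ in sgCtrL (0.54, edgeR adjusted p = 3.55e-06). Of the 9, IFNγ raised 3 and lowered 3 in sgCtrL (15.7% and 14.5% of all genes, list median 0.052). In Sin3Bsg1 it raised 3 and lowered 2 (16.1% and 12.3%, median 0.0022). For genotype 1 was higher and 1 lower without IFNγ (7.89% and 9.33% of all genes), and 0 and 1 with it (8.62% and 7.90%).

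All 13 genes of the list of cytosolic aminoacyl-tRNA synthetases and Xpot, which charge tRNAs with amino acids or export them from the nucleus, were higher in Sin3Bsg1 in the untreated experiment, with log2 fold changes from 0.078 to 0.39 (15.1% of all genes were higher). Without IFNγ 2 of 13 were higher, Cars1 among them (0.26, edgeR adjusted p = 0.0130), and with IFNγ 4 of 13, beside 7.89% and 8.62% of all genes. The call of Cars1 without IFNγ was lost without sgCtrL replicate 1 (0.21, edgeR adjusted p = 0.0773) or Sin3Bsg1 replicate 2 (0.22, adjusted p = 0.0681). IFNγ raised 10 of 13 in sgCtrL and 11 of 13 in Sin3Bsg1 (15.7% and 16.1% of all genes). Wars1, the tryptophanyl-tRNA synthetase known as an IFNγ target, rose from a mean of 89.1 to 677 CPM in sgCtrL and from 90.7 to 894 CPM in Sin3Bsg1. Its log2 fold changes were 2.93 and 3.30 (SE 0.059 and 0.060, edgeR adjusted p = 1.08e-15 and 2.22e-16), and with IFNγ it was higher in Sin3Bsg1 by 0.40 (adjusted p = 7.57e-05). Yars1 and Gars1, for tyrosine and glycine, rose with IFNγ in Sin3Bsg1 by 0.53 and 0.50 (edgeR adjusted p = 2.22e-06 and 6.48e-05).

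Of 20 genes of the ATF6 and XBP1 unfolded protein response, the arms that Hspa5 belongs to, 3 were higher and 5 lower in the untreated experiment, where 15.1% and 16.0% of all genes tested were, so this list was near the background. Herpud1, which serves the degradation of misfolded proteins, was higher in Sin3Bsg1 in all 3 genotype comparisons, by 0.62, 0.56 and 0.61 (edgeR adjusted p = 6.20e-08, 1.23e-05 and 6.22e-06). Dnajb11, a partner of BiP, was lower without IFNγ (-0.28, edgeR adjusted p = 0.00147). Ern1, the gene of the stress sensor IRE1, fell with IFNγ by 0.71 in sgCtrL and 0.67 in Sin3Bsg1 (edgeR adjusted p = 2.41e-05 and 3.43e-05). Of 8 tested stress effectors and secreted factors, 3 were higher and 2 lower in Sin3Bsg1 in the untreated experiment (15.1% and 16.0% of all genes). Their median log2 fold change there was -0.010. IFNγ raised none of the 8 and lowered 6 in sgCtrL and 5 in Sin3Bsg1 (14.5% and 12.3% of all genes were lower). Gadd45a was among those lowered in sgCtrL (-0.48, edgeR adjusted p = 0.00161). Of 7 mitochondrial stress genes 3 were higher in the untreated experiment (15.1% of all genes), and Hspd1, a mitochondrial chaperonin, was lower in Sin3Bsg1 with IFNγ (-0.26, edgeR adjusted p = 0.00230).

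**Figure D4:**
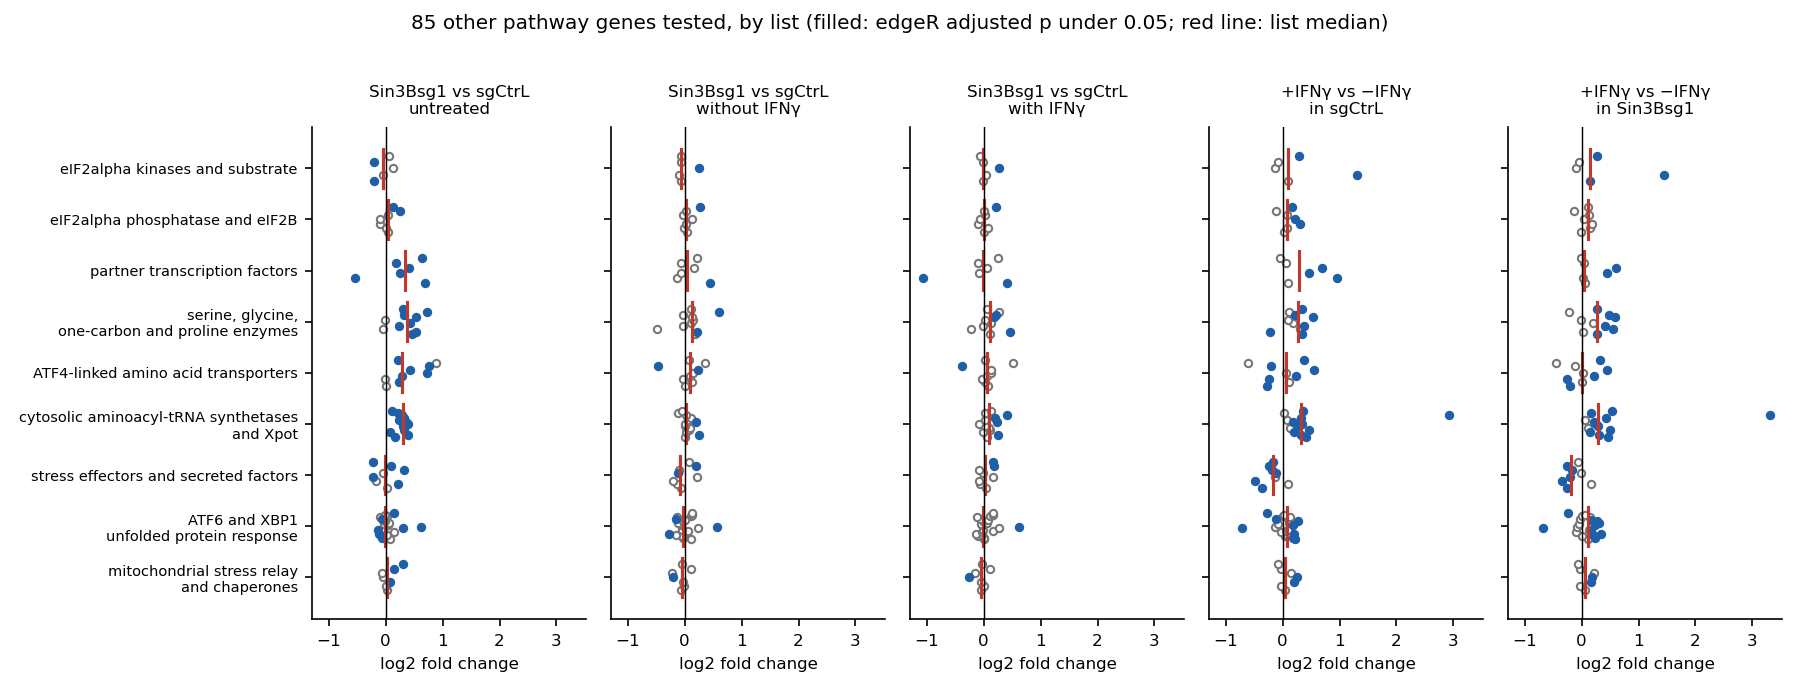
Log2 fold changes (x axis) of the 85 pathway genes tested other than the 10, by list (rows) and comparison (panels). Filled points passed an edgeR adjusted p under 0.05 and red lines mark list medians. All 13 points of the synthetase row are filled and above 0 in the first panel, and the far points in the IFNγ panels are Wars1 at 2.93 and 3.30.

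Per transcript length, Phgdh and Hspa5 were the most abundant of the 10 genes in all 6 groups, and Chac1, Atf3 and Sesn2 the least abundant in 5 of them. In sgCtrL without IFNγ the mean TPM were 686 ± 19.4 for Phgdh, 671 ± 18.1 for Hspa5, 410 ± 14.3 for Atf4, 223 ± 6.47 for Psat1, 59.8 ± 0.761 for Asns and 25.9 ± 3.34 for Ddit3 (SD, n = 3). Below these came Atf3 at 10.7 ± 1.31, Trib3 at 10.2 ± 1.17, Sesn2 at 9.81 ± 0.473 and Chac1 at 2.82 ± 0.916 TPM (SD, n = 3). Phgdh and Hspa5 did not differ beyond their spread, nor did Atf3, Trib3 and Sesn2. In Sin3Bsg1 of the untreated experiment Trib3, at 40.2 ± 0.0475 TPM (SD, n = 2), stood above Ddit3 at 29.8 ± 2.37 TPM, while in Sin3Bsg1 with IFNγ Chac1 at 14.0 ± 0.849 TPM and Sesn2 at 13.6 ± 1.38 TPM (SD, n = 3) lay within their spread.

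Likeness among the 10 genes was described by correlations between their levels. Over the 12 libraries of the IFNγ experiment, correlations of log2 CPM between pairs of the 10 genes were all positive (45 of 45, median 0.85), and these libraries share their split by IFNγ. For deviations from group means the median was 0.33, with 29 of 45 positive, and Asns with Psat1 had the highest value (Pearson r = 0.93). Without replicate 1 of sgCtrL with IFNγ, the median over the 11 libraries left was 0.022 and Asns with Psat1 had r = 0.057. Atf4 with Ddit3 kept a high value, 0.87 in both. Ranked over 10493 other genes with a mean of at least 5 CPM, the genes whose log2 CPM correlated best with the mean z-score of Trib3, Chac1, Asns, Psat1, Phgdh and Sesn2 over the 12 libraries were Gars (named Gars1 above; r = 0.992), ENSMUSG00000120992 (0.992), Pnpla2 (0.989), Il17rc (0.989) and Stom (0.984). These values are descriptions, since the 12 points fall into libraries with and without IFNγ.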

How the data were processed

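RNA-seq of 16 KPC1199 libraries was used, 4 of the untreated experiment and 12 of the IFNγ experiment. Values deposited by the authors are estimated counts per gene, not normalized and not always whole, in 1 table per experiment, beside group means that were checked and left out. The submitters' processing notes name mm39, fastp, HISAT2, StringTie and DESeq2, while the paper's methods name mm9 and featureCounts, so the build is uncertain and gene positions serve as annotation only. Control columns named for lacZ were taken as sgCtrL, since each table holds 1 other guide. Assembled loci without a gene (324 features, 0.615 to 0.677% of counts, untreated table) were dropped.

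The estimated counts were rounded and each table was fitted apart with edgeR 4.0.16 in R 4.3.3 (TMM, filterByExpr, quasi-likelihood test, two-sided, Benjamini-Hochberg over all genes tested, threshold 0.05). The 4 groups of the IFNγ experiment shared 1 estimate of the spread. Standard errors are the log2 fold change over the root of F, and 95% intervals use the t quantile at edgeR's degrees of freedom and cover the spread between libraries. TPM used the deposited gene lengths. Correlations used log2(CPM + 0.5). Fits were tested on simulated data. Alternatives were DESeq2 1.42.0, median-ratio factors, no filter on low counts, a replicate block, only the 6 libraries compared, and leaving out each library. Python 3.11.15, pandas 2.3.3, numpy 2.4.6 and matplotlib 3.10.9 were used.

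The 10 genes, the lists and the tests were chosen with earlier results of these data known. Named besides the 10 genes and Sin3b were, per comparison, up to 8 list genes with the largest absolute log2 fold change among those that passed and averaged 5 CPM or more, and the 5 genes of the most similar pattern. Eif2ak1, Eif2ak4 and Mars1 were named after their values were seen. The engineered alleles of the line are not reported here.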

Additional observations from a re-analysis of the deposited data

Results flagged for a closer look

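Atf3 and Psat1 lay higher in Sin3Bsg1 in the untreated experiment and lower without IFNγ, without overlap between the libraries of the genotypes in either. Of all genes tested, 31.9% lay higher without overlap in the untreated experiment, and 20.9% lay lower without overlap without IFNγ. Atf3 had a log2 fold change, Sin3Bsg1 against sgCtrL, of 0.67 in the untreated experiment and of -0.25 without IFNγ in the IFNγ experiment. Psat1 had 0.33 and -0.12 in the same comparisons. In the untreated experiment Atf3 passed in edgeR (adjusted p = 0.0124) and not in DESeq2 (adjusted p = 0.0703). Without IFNγ neither gene passed the edgeR test on all 12 libraries. Psat1 passed there as lower in edgeR on only the 6 libraries compared (adjusted p = 0.00952) and without replicate 1 of sgCtrL with IFNγ (adjusted p = 0.0200). The difference between the experiments was not tested, since the tables are separate. The experiment, its libraries and the level of Atf3 in sgCtrL (2.80 ± 0.262 CPM, SD, n = 2, against 9.66 ± 1.17 CPM, SD, n = 3) cannot be told apart.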

How the results depend on the processing

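Over 60 results, the 10 genes in 6 contrasts, the replicate block changed no call of a gene. The replicate numbers pair no samples by their labels, and correlations of deviations between same-numbered libraries ran from -0.17 to 0.25 in the IFNγ experiment and were -0.016 in the untreated experiment. In the IFNγ experiment 8 of 12 libraries correlated best with those of their own number, among 3 numbers. Whether libraries of the same number share a preparation was not tested. Under the block the counts of called genes among the 10 were 9, 1, 1, 7, 9 and 0, as without it. DESeq2 ended 3 calls (Atf3 and Sesn2 in the untreated experiment, Hspa5 with IFNγ in Sin3Bsg1) and median-ratio factors ended 1 (Hspa5, adjusted p = 0.0673 in edgeR). The genotype difference of Hspa5 with IFNγ turned sign at values near 0: -0.0025 with DESeq2, -0.0026 with median-ratio factors and -0.0047 on only the 6 libraries compared. Without the filter on low counts, 2 of the 10 genes were called for genotype without IFNγ and 2 with IFNγ, Trib3 being added. These counts show which calls changed and were not set against all genes tested without the filter. On only the 6 libraries compared, 3 were called without IFNγ (Asns and Trib3 higher, Psat1 lower), and 3996 and 1500 genes in all were called without and with IFNγ. For the interaction, 32 genes were called with DESeq2 and 110 without the filter, none of them among the 10.

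Leaving out 1 library at a time, 1 to 3 of the 10 genes were called for genotype without IFNγ and 1 to 4 with IFNγ. Of all genes tested, 1864 to 3529 were then called without IFNγ and 1782 to 2945 with IFNγ, and 1 to 33 passed the interaction. Log2 fold changes of genotype with IFNγ ran from -0.076 to 0.078 for Atf3, -0.046 to 0.085 for Psat1, -0.013 to 0.096 for Phgdh and -0.048 to 0.075 for Hspa5. The interaction ran from -0.011 to 0.061 for Atf4, -0.045 to 0.19 for Ddit3, -0.11 to 0.095 for Trib3 and -0.040 to 0.053 for Sin3b. Where this left 1 library in a group of the untreated experiment, it was assumed to vary like the other group. The cause of these changes was not tested. Chac1 was counted at 31 to 75 reads per library without IFNγ, and with 2 or 3 libraries per group small differences could be missed.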
